A study of Mus musculus with 4 samples.

Results

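MicroRNA and small nucleolar RNA (snoRNA) genes were followed across 4 gene expression arrays of mouse colony-forming cells. The members are the probe sets that the platform annotation maps to a single symbol beginning with Mir and a digit, Mirlet7, Snora or Snord. There were 361 of them among 35556 probe sets on the array, of which 21789 carried 1 symbol. They comprised 298 microRNA hairpins, 7 microRNA host transcripts, 23 H/ACA snoRNAs and 33 C/D snoRNAs, and represented 351 genes. No measured value entered the choice.

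The cells were C57BL/6 haematopoietic stem cells, long-term (LT-HSC) or short-term (ST-HSC), which had been mock-transduced or given CreER, the Cre recombinase in a form that works only once a ligand of the oestrogen receptor domain is added. They were grown into colonies in methylcellulose with serum, stem cell factor, interleukins 3 and 6 and GM-CSF. The series title names conditional expression of the leukaemia fusion MLL-ENL; the labels do not say whether mock-transduced cells carried the fusion allele or whether CreER was activated. Each population was measured with mock and with CreER, which makes 4 groups of 1 array each, so no difference between a pair of arrays has a replicate check.

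MicroRNAs are cut by Drosha and Dicer from hairpins in longer transcripts, and the mature strand guides an Argonaute protein to messenger RNAs, mainly through its seed, the bases near the 5′ end. Many hairpins lie in clusters that are transcribed together. SnoRNAs guide the modification and processing of ribosomal RNA, the C/D class for methylation with fibrillarin and the H/ACA class for pseudouridylation with dyskerin, and most mouse snoRNAs are excised from introns of host genes. RNA was purified here over columns and labelled by a whole-transcript method, so how far a probe set reports the mature small RNA, its precursor or the surrounding transcript was not tested.

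The mature sequences below belong to the hairpins called in the population comparison, to relatives that share their seed, and to the Mir17 cluster, whose measured hairpins were not called but had differences in 1 direction. They were taken from the RefSeq microRNA table of GRCm38.p6. Capitals mark the seed, bases 2 to 8. Mir142 gives a pair of mature strands, at chr11:87756867-87756887 and chr11:87756903-87756925 on the plus strand.
miR-142a-5p: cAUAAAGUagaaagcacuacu
miR-142a-3p: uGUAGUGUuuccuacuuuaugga
The Mir15a product (chr14:61632075-61632096, minus strand) has the same seed as those of its neighbour Mir16-1 (chr14:61631936-61631957, minus strand) and of Mir15b on chromosome 3.
miR-15a-5p: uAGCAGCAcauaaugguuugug
miR-16-5p: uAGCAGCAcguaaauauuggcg
miR-15b-5p: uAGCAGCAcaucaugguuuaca
The Mir181b-1 product (chr1:137966650-137966673, plus strand) is identical to that of Mir181b-2 on chromosome 2, and shares its seed with those of its neighbour Mir181a-1 (chr1:137966468-137966490, plus strand) and of Mir181d on chromosome 8.
miR-181b-5p: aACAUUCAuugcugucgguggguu
miR-181a-5p: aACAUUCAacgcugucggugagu
miR-181d-5p: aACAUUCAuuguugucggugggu
The Mirlet7d product (chr13:48536078-48536099, minus strand) is set beside that of Mirlet7i, the other let-7 hairpin that passed the signal floor described below.
let-7d-5p: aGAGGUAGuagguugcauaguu
let-7i-5p: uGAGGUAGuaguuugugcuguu
The Mir17 cluster lies on the plus strand of chromosome 14, with mature strands from chr14:115043684-115043706 (Mir17) to chr14:115044358-115044380 (Mir19b-1), and its 5 measured hairpins hold 3 seeds.
miR-17-5p: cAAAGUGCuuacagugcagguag
miR-20a-5p: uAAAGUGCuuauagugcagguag
miR-18a-5p: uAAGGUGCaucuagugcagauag
miR-19a-3p: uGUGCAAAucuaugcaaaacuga
miR-19b-3p: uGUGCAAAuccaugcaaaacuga

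Most members had signals below the array's median. That median, taken on each array over all probe sets that carry 1 symbol, served as the signal floor and was 8.07 to 8.13 on the log2 scale. Of the 361 members, 96 exceeded it on at least 1 array, made up of 55 microRNA hairpins and 41 snoRNAs, and 80 did so on all 4. The other 265, including all 7 microRNA host transcripts, stayed under it on every array. With mock, 94 members exceeded the floor in ST-HSC-derived and 86 in LT-HSC-derived cells, and with CreER 89 and 88. The median snoRNA probe set lay at 8.98, 8.99, 8.86 and 9.30 on these arrays and the median microRNA probe set at 6.39, 6.33, 6.40 and 6.38. Every list of 4 values below keeps this order, ST-HSC then LT-HSC with mock, followed by ST-HSC then LT-HSC with CreER.

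Among the snoRNAs with high signals were Snora52 at 13.45, 13.53, 13.34 and 13.52, Snord57 at 12.61, 12.89, 12.56 and 12.44, and Snora7a at 11.42, 11.55, 11.41 and 11.59. Mir692-1 read 12.37, 12.51, 12.53 and 12.27. Other probe sets of the array list Mir692-2 and Mir692-3 together with Ftl1, the ferritin light chain gene, so what the Mir692-1 probe set reports is uncertain. Mir346 (10.01 to 10.32), Mir598 (9.93 to 10.21), Mir7-1 (9.48 to 9.67), the hypoxia-induced Mir210 (9.59 to 9.70) and Mir667 (9.26 to 9.57) were among the microRNA hairpins with high signals, and each varied by less than 0.4 between arrays. Signals of different probe sets depend on their probes and were not ranked against one another as amounts of RNA.

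LT-HSC-derived cells had lower signals of the hairpins Mir142, Mir181b-1, Mir15a and Mirlet7d than ST-HSC-derived cells, and higher signals of the snoRNAs Snora75 and Snord118. These 6 genes were the members that passed an adjusted p of 0.05 in a limma fit with terms for population and transduction. All 6 had both LT-HSC arrays on one side of both ST-HSC arrays. A call on these same arrays favours that order, so it is no separate support. The fit takes the mock and CreER arrays of a population as its repeats and has 1 residual degree of freedom per probe set, so its p-values set a difference against the spread between these arrays and not between animals.

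Mir142, a hairpin largely restricted to blood cells, read 10.46 in ST-HSC-derived and 8.28 in LT-HSC-derived cells with mock, and 10.33 and 8.43 with CreER. All 4 values lay above the floor, and both ST-HSC arrays stood far above both LT-HSC arrays. The signal was 4.53-fold lower in LT-HSC-derived cells with mock and 3.73-fold lower with CreER. The fitted difference was -2.04 ± 0.11 (SE, n = 4 arrays), with a limma adjusted p of 0.00438.

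Mir15a, which belongs to a family that restrains Bcl2 and cell cycle genes, read 9.62, 8.40, 9.97 and 8.62. Its signal was lower in LT-HSC-derived cells by 2.32-fold with mock and 2.56-fold with CreER, a fitted difference of -1.29 ± 0.10 (SE, n = 4 arrays) with a limma adjusted p of 0.00629. Both CreER values were above their mock counterparts, by 0.21 for LT-HSC and 0.36 for ST-HSC, a difference that did not pass the test (limma adjusted p = 0.444).

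Mir181b-1, of a family known for its part in lymphoid differentiation, read 8.30, 6.56, 7.88 and 6.31. It exceeded the floor on 1 array alone, ST-HSC mock, so the size of its differences is uncertain. The differences were -1.74 with mock and -1.56 with CreER, and the fitted one was -1.65 ± 0.10 (SE, n = 4 arrays) with a limma adjusted p of 0.00438. With CreER neither array reached the floor, so this second difference does not enter the counts at 2-fold.

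Mirlet7d, of the let-7 family that accumulates as cells differentiate, read 8.27, 7.51, 8.27 and 7.48. The ST-HSC values were the same to the second decimal, and both LT-HSC values lay below the floor. Its fitted difference was -0.78 ± 0.09 (SE, n = 4 arrays), with a limma adjusted p of 0.0174, and its differences of -0.76 with mock and -0.80 with CreER were short of 2-fold.

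Snora75, an H/ACA snoRNA also called U23 that lies in the nucleolin gene Ncl, read 8.66, 9.64, 8.52 and 9.63. Both LT-HSC arrays stood about 1 log2 unit above both ST-HSC arrays, by 0.98 with mock and 1.11 with CreER. The fitted difference was 1.04 ± 0.10 (SE, n = 4 arrays), with a limma adjusted p of 0.00952.

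Snord118, the C/D snoRNA U8 needed for processing of the large ribosomal subunit RNAs, read 8.29, 9.15, 8.005 and 9.63. It had a pair of probe sets with identical values on every array, which are 1 measurement. The LT-HSC values were higher by 0.86 with mock and by 1.63 with CreER. The ST-HSC CreER value lay under the floor, so the size of the latter difference is uncertain. The fitted difference was 1.24 ± 0.19 (SE, n = 4 arrays) with a limma adjusted p of 0.0299. After cyclic loess normalization the adjusted p from limma was 0.0504, just above the threshold.

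**Figure D1:**
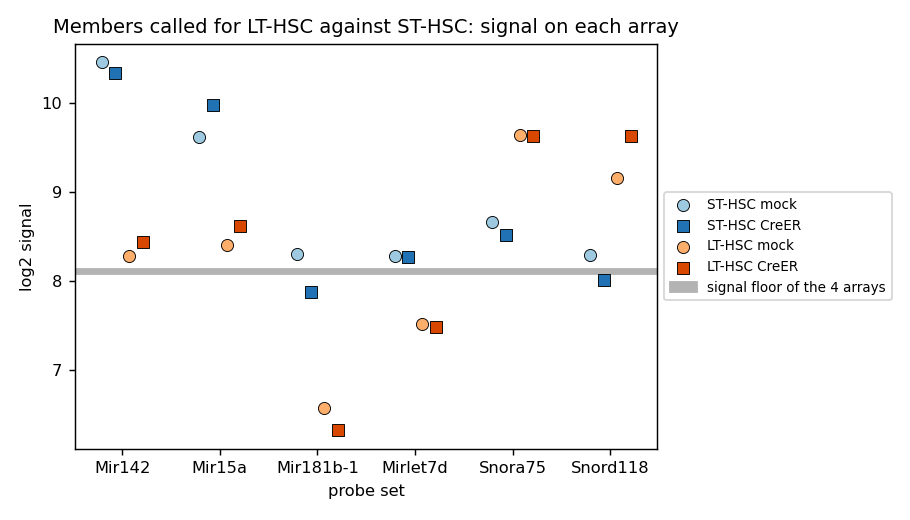
Log2 signal of the 6 genes called for LT-HSC against ST-HSC, with 1 point for each of the 4 arrays (circles mock, squares CreER, blue ST-HSC, orange LT-HSC) and the signal floor of the arrays as a grey band. The 4 hairpins stand lower on both LT-HSC arrays and the 2 snoRNAs higher, and the points under the floor are both LT-HSC values of Mir181b-1 and Mirlet7d and the ST-HSC CreER values of Mir181b-1 and Snord118.

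The counts at 2-fold were small. With mock, 3 of 95 members above the floor on the higher array were at least 2-fold lower in LT-HSC-derived cells (Mir142, Mir15a and Mir181b-1), beside 0.374% of all probe sets tested the same way, and 0 were at least 2-fold higher, beside 2.51%. With CreER, 2 of 92 were lower (Mir142 and Mir15a), beside 0.517%, and 3 were higher (Snora75 and both Snord118 probe sets), beside 1.29%. In the limma fit 4 of 96 members were lower, beside 2.47% of 11466 probe sets, and 3 were higher, beside 3.55%. Of the 4, Mir181b-1 and Mirlet7d entered the fit only through ST-HSC arrays, where they were high. The 3 include both identical Snord118 probe sets. At an unadjusted p under 0.05 there were 19 members, beside 26.1% of all probe sets. Both LT-HSC arrays stood above both ST-HSC arrays for 26 of the 96 members and below them for 14, beside 25.4% and 29.9% of all probe sets.

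The counts were also taken by class. Of the 55 microRNA hairpins past the floor, 9 had both LT-HSC values above both ST-HSC values and 11 had both below. Of the 41 snoRNA probe sets, 17 had both above and 3 had both below. Over all probe sets the shares were 25.4% and 29.9%. The difference between the classes was not tested.

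Several members came close to the threshold for population. Mir18 of the Mir17 cluster (0.47 ± 0.09, limma adjusted p = 0.051) and the X-linked Mir505 (0.56 ± 0.11, adjusted p = 0.0515) had higher signals in LT-HSC-derived cells. Snord87 (-0.44 ± 0.09, adjusted p = 0.0626) had a lower one, and Snord49b (0.38 ± 0.10 (SE, n = 4 arrays), adjusted p = 0.0844) a higher one. Mir505 read 9.49, 9.91, 9.71 and 10.41, with the CreER array above its mock array in both populations. Snord87 read 8.70, 8.31, 8.33 and 7.84, the reverse order.

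Neighbouring hairpins, which a common primary transcript would carry together, did not all have the same differences. In the Mir17 cluster all 5 measured hairpins, 4 of them under the floor, had both LT-HSC values above both ST-HSC values. The share was 25.4% over probe sets past the floor and was not computed for those under it. Mir19b-1 read 6.60, 7.53, 6.56 and 7.46, so that it was higher by 0.93 with mock and 0.90 with CreER. Mir19a differed by 0.82 and 0.72, Mir20a by 0.78 and 0.45, Mir18 by 0.44 and 0.50 and Mir17 by 0.17 and 0.40. Only Mir18, at 7.70, 8.14, 7.58 and 8.08, reached the floor, and it did so on the LT-HSC mock array alone. The probe set of the cluster's host transcript Mir17hg read from 6.94 to 7.30. When probe sets under the floor were tested too, Mir19a, Mir19b-1 and Mir20a passed an adjusted p of 0.05 in limma.

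The neighbours of Mir15a and Mir181b-1 differed less, but at levels under the floor, where the size of a difference is uncertain. Mir16-1, next to Mir15a, read 6.56, 6.61, 6.90 and 6.64 and differed between LT-HSC and ST-HSC by 0.05 with mock and -0.26 with CreER. Mir15b, with the same seed on another chromosome, read 6.58, 6.10, 7.10 and 5.56, which gave -0.48 with mock and -1.54 with CreER under the floor. Mir181a-1, next to Mir181b-1, differed by -0.52 and -0.30 at levels of 4.51 to 5.03. The hairpins Mir181c and Mir181d, above the floor and on chromosome 8, differed by 0.00 and 0.12 and by -0.02 and 0.21. Mir181b-2, whose mature strand is the same as that of Mir181b-1, read 6.02, 6.08, 5.98 and 6.10, under the floor on every array. The difference was thus seen on the probe set of only 1 of the hairpins that give this strand.

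The let-7 cluster showed a like spread. Mirlet7f-1 differed by -0.53 with mock and -0.40 with CreER and Mirlet7a-1 by -0.36 and 0.07, both under the floor. Mirlet7i, a separate gene, read 8.44, 8.36, 8.46 and 8.67, with overlapping populations. Of the 10 measured members of the let-7 family, 2 passed the floor and 1, Mirlet7d, was lower in the limma fit, beside 2.47% of all probe sets. Mirlet7d passed the floor on the ST-HSC arrays alone.

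**Figure D2:**
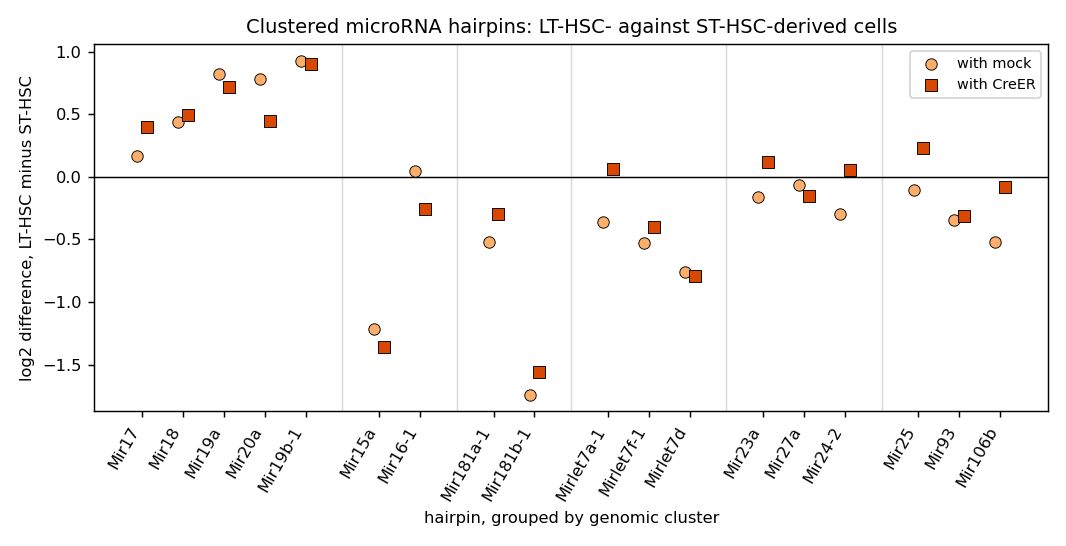
Log2 difference of LT-HSC against ST-HSC for the hairpins of 6 genomic clusters, with mock (light circles) and with CreER (dark squares), 1 array a group. The 5 hairpins of the Mir17 cluster lie above 0 in both, whereas Mir15a and Mir181b-1 lie far below 0. Their neighbours, with signals under the floor, lie nearer to 0.

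Other hairpins known from blood cells that passed the floor had small differences. Of the 27 symbols on the list tied to myeloid cells and inflammation, 15 were measured by a probe set of their own and 6 passed the floor. Mir223 was not measured in this way. Mir22 shares a probe set with Mir22hg, which differed between populations by -0.60 with mock and -1.37 with CreER. Mir23a, Mir27a and Mir24-2, a cluster of myeloid cells, differed between populations by -0.30 to 0.11 across both transductions. Mir25 read 9.10, 8.99, 9.03 and 9.26 and Mir93, from the same cluster in Mcm7, 8.12, 7.77, 8.35 and 8.04, with limma adjusted p of 0.769 and 0.104 for population. Mir150 (8.02 to 8.38), Mir326 (8.29 to 8.62), Mir328 (9.21 to 9.56), Mir212 (8.66 to 8.93) and Mir99b (8.35 to 8.57) did not pass the test either. Of the list tied to stem and progenitor cells, 21 hairpins and host transcripts in all, 1, Mir99b, passed the floor. Mir196b, which lies in the HoxA cluster, stayed under it at 7.31, 7.21, 7.26 and 7.57, as did Mir155, a hairpin of inflammation, at 7.59, 7.49, 7.42 and 7.85, and Mir126a and Mir10a below 5. The 29 hairpins past the floor outside the naming rule differed between populations by -0.42 to 0.40, and the smallest limma adjusted p among them was 0.124, for Mir423.

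CreER went with no member difference of 2-fold in either population. In LT-HSC-derived cells 0 of 91 members were at least 2-fold higher, beside 0.0982% of all probe sets, and 0 were lower, beside 0.714%. In ST-HSC-derived cells 0 of 95 were higher, beside 0.415%, and 0 were lower, beside 0.0722%. The limma fit called 0 of 96 members for CreER at an adjusted p of 0.05, beside 0% of all probe sets, and 8 had an unadjusted p under 0.05, beside 10%. The smallest adjusted p among members was 0.33, for Snord87.

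The largest differences with CreER were those of snoRNAs in LT-HSC-derived cells. Snora73b, one of the U17 snoRNAs that act in 18S ribosomal RNA processing, read 10.12, 9.94, 10.09 and 10.88. Snora73a, its close relative in the same host gene, Snhg3, read 10.31, 10.25, 10.33 and 11.11. In both the LT-HSC CreER array stood apart from 3 arrays that differed by less than 0.2, and the CreER difference was 0.95 and 0.86 for LT-HSC against -0.03 and 0.02 for ST-HSC. As near-identical copies, their probe sets may share signal.

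Snord104 read 12.19, 12.08, 12.14 and 12.88, also with only the LT-HSC CreER array apart, a difference of 0.80 from its mock array. Snora44 and Snora16a, both in Snhg12, had CreER values above mock by 0.61 and 0.50 for LT-HSC, and differed by -0.05 and 0.30 for ST-HSC. Snord87 was lower with CreER in both populations, by 0.47 and 0.36, as was Mir181b-1, by 0.25 and 0.43. Snord57 differed by -0.45 and -0.04. Mir505 was higher with CreER in both, by 0.50 and 0.21, as were Mir668, by 0.44 and 0.21, and Mir93, by 0.27 and 0.23. None of these passed the limma test.

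Snord14e, a U14 snoRNA in the heat shock gene Hspa8, went opposite ways. It read 11.19 and 10.54 with mock, in ST-HSC-derived and LT-HSC-derived cells, and 10.64 and 11.09 with CreER. CreER thus differed from mock by 0.55 for LT-HSC and -0.55 for ST-HSC. Snora31, in Tpt1, read 8.70, 8.78, 8.37 and 9.31, which gave 0.53 and -0.33.

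Across the class, snoRNA probe sets of ST-HSC-derived cells were mostly a little lower with CreER. Of 41 past the floor, 35 lay below 0, with a median of -0.15. Over all probe sets past the floor 6377 of 11079 lay below 0, with a median of -0.03. The lowest snoRNAs were Snord14e, Snord33 (-0.43), Snord53 (-0.42), Snord73b (-0.38) and Snora70 (-0.36). In LT-HSC-derived cells the snoRNA median was 0.04, with 24 of 41 above 0, beside 4986 of 11199 over all probe sets. The ST-HSC CreER array held the lowest of the 4 values for 25 of the 41 snoRNA probe sets, 61%, beside 25.8% of all probe sets past the floor. The LT-HSC CreER array held the highest for 20, 48.8%, beside 21.2%. The median difference between LT-HSC and ST-HSC was accordingly 0.27 with CreER, with 33 of 40 above 0, beside 5266 of 11223 over all probe sets. With mock it was 0.02, with 21 of 41 above 0, beside 5138 of 11244. The mock median was -0.00 after centring arrays on their medians. For the H/ACA class with CreER it was 0.41, with 16 of 17 above 0. The 4 comparisons share arrays, so these medians are not separate observations.

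**Figure D3:**
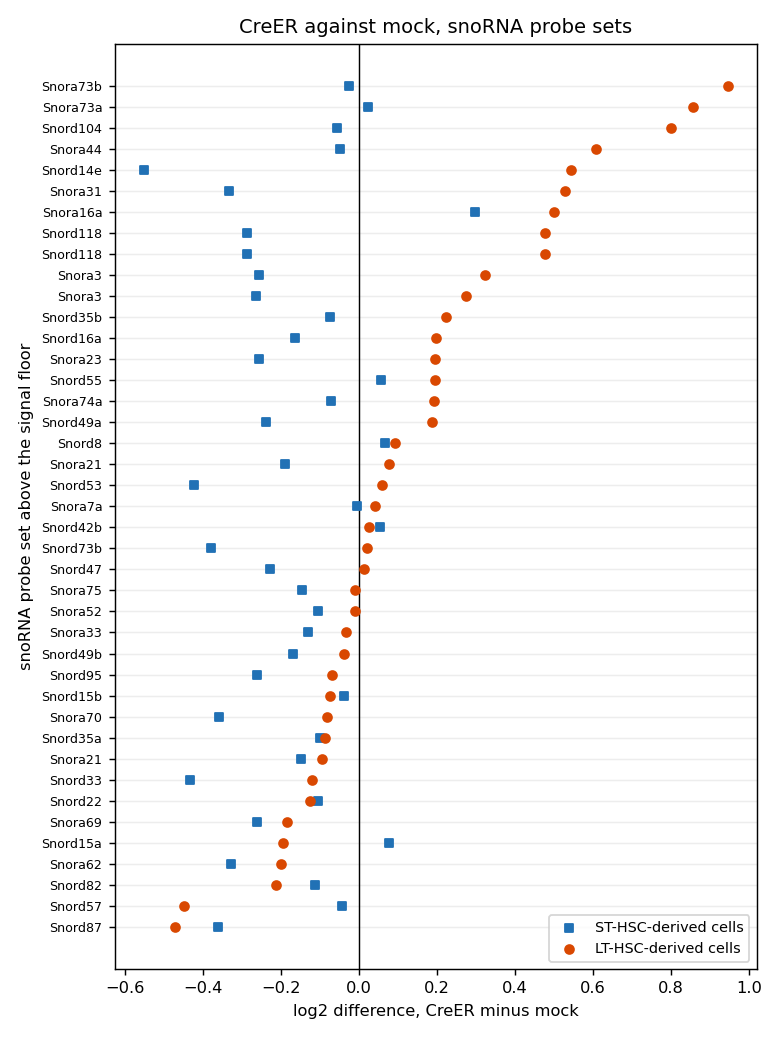
Log2 difference of CreER against mock for each snoRNA probe set above the signal floor, in LT-HSC-derived cells (orange circles) and ST-HSC-derived cells (blue squares), 1 array a group, ordered by the LT-HSC value. In ST-HSC-derived cells 35 of 41 lie below 0, beside 6377 of 11079 over all probe sets past the floor. In LT-HSC-derived cells the points reach from -0.47 for Snord87 to 0.95 for Snora73b.

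The microRNA hairpins of LT-HSC-derived cells were mostly a little higher with CreER, with a median of 0.22 and 42 of 50 above 0. Over all probe sets past the floor that median was -0.03, with 4986 of 11199 above 0. In ST-HSC-derived cells the hairpin median was 0.00, with 29 of 54 above 0, beside 4700 of 11079 over all probe sets. The LT-HSC CreER array held the highest value for 34 of 55 hairpins, 61.8%, beside 21.2% of all probe sets past the floor. The LT-HSC mock array held the lowest for 30, 54.5%, beside 28%. Weak probe sets of other kinds also had medians above 0 for CreER against mock in LT-HSC. Over all 298 hairpins, whatever their level, the median for CreER against mock in LT-HSC was 0.11. The 10323 probe sets under the floor on every array, most of the hairpins among them, had a median of 0.10. The 1035 olfactory receptor probe sets, genes mostly silent in blood cells, had one of 0.09. Past the floor, 10 olfactory receptor probe sets had a median of 0.22 and ranged from -1.33 to 0.57. Of the 11 past it on some array, 5 passed on all 4, and 8 were highest on the LT-HSC CreER array. A filter on the higher array can raise such a median, so it is no check on the hairpins. Whether the hairpin values and those of these other probe sets have a common source was not tested.

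Host genes are taken as the shortest RefSeq gene that spans the small RNA, on the same strand where the tables used give both strands. By this rule 227 of 354 small RNA probe sets had a host, as had 65 of the 96 past the floor. The array measured the host of 43 of these, and 31 had a host past the floor, which leaves 29 pairs over 26 hosts when a symbol is counted once. Among the called genes, Snora75 had a host past the floor. The host of Mir15a, Dleu2, read 3.60 to 3.71, under the floor, and Mir142, Mir181b-1, Mirlet7d and Snord118 had none by the rule. Snhg3, Snhg12 and the hosts of Snord104, Snord87 and Mir505 were not measured by a probe set of their own.

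Snora75 and its host rose together in LT-HSC-derived cells. Ncl read 11.73, 12.33, 11.83 and 12.35, higher by 0.60 with mock and 0.52 with CreER, a fitted 0.56 that passed the limma test at an adjusted p of 0.0357. Snord82, a second snoRNA of Ncl, read 11.79, 12.14, 11.68 and 11.93. Its fitted difference of 0.30 ± 0.09 (SE, n = 4 arrays) did not pass (limma adjusted p = 0.125). Within 1 host gene, then, the differences with mock were 0.98 for Snora75, 0.35 for Snord82 and 0.60 for the host probe set.

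Other hosts that rose in LT-HSC-derived cells had snoRNAs whose differences were smaller. Gas5, a noncoding gene of growth arrest, was higher by 0.63 with mock and 0.56 with CreER, and its Snord47 differed by 0.04 and 0.28. Nop56, which encodes a core C/D snoRNP protein, was higher by 0.50 and 0.62, and its Snord57 differed by 0.28 and -0.12. Wdr43, a ribosome biogenesis gene, was higher by 0.57 and 0.82, and its Snord53 differed by 0.12 and 0.60. These 3 hosts passed the limma test, with adjusted p of 0.0304, 0.0389 and 0.0289, and none of the 3 snoRNAs did.

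A pair of snoRNAs that did not pass the limma test ranged more widely over the arrays than their hosts, a difference that was not tested. Hspa8 read 13.88, 13.72, 13.83 and 13.83, a range of under 0.2, while Snord14e ranged over 0.65. Tpt1 read 13.92, 14.01, 13.91 and 13.93, while Snora31 ranged over 0.94. Signals near the top of the scale may be compressed, which was not tested. Of the microRNA hosts, Mcm7, a replication helicase gene, differed by 0.46 between the LT-HSC arrays, towards CreER, beside 0.26 for Mir25 and 0.27 for Mir93. Nsrp1, the host of Mir423, differed between populations by -0.03 with mock and -0.22 with CreER, beside -0.42 and -0.23 for Mir423, and Eml2, the host of Mir330, by 0.12 and -0.02, beside -0.22 and -0.29.

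Over the 29 pairs, Pearson's r between the differences of small RNA and host was 0.59 for LT-HSC against ST-HSC with mock and 0.296 with CreER. For CreER against mock it was 0.464 in ST-HSC and 0.358 in LT-HSC. For the 19 snoRNA pairs it was 0.617 with mock and -0.01 with CreER, and for the 10 microRNA pairs -0.03 and -0.05. For CreER against mock the microRNA pairs had an r of 0.744 in LT-HSC and 0.316 in ST-HSC, and the snoRNA pairs 0.126 and 0.163. The direction was shared by 19 of the 29 pairs with mock and 21 with CreER for LT-HSC against ST-HSC, and by 13 in LT-HSC and 22 in ST-HSC for CreER against mock. The pairs share 4 arrays and some share a host, so these values are descriptions.

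**Figure D4:**
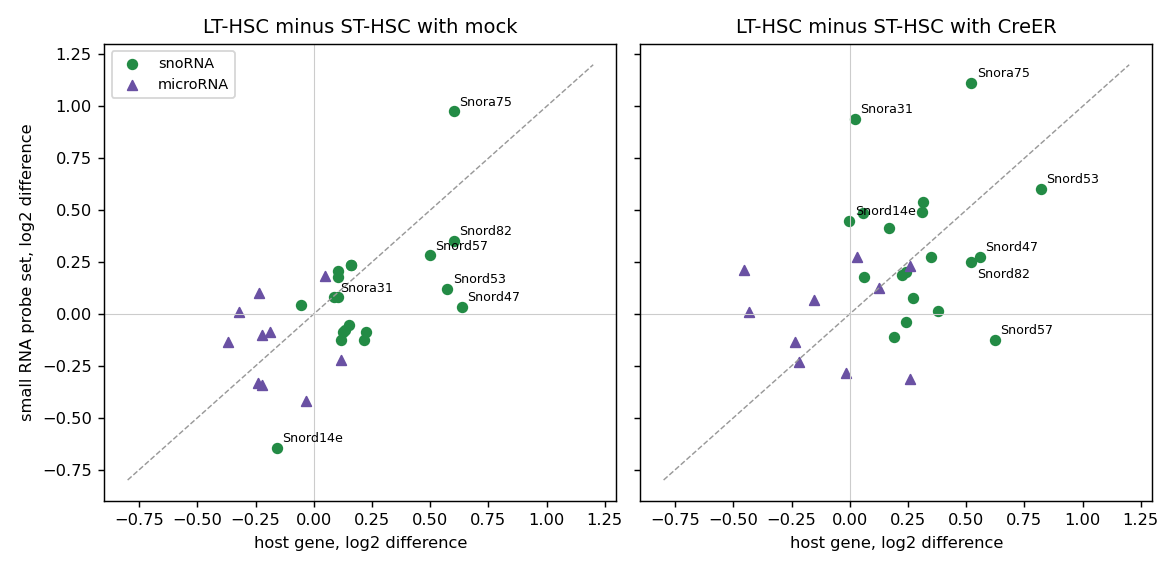
Log2 difference of each small RNA probe set (vertical) against that of its host gene (horizontal) for LT-HSC against ST-HSC, with mock on the left and CreER on the right; green circles are 19 snoRNAs, purple triangles 10 microRNAs, and the dashed line marks equal differences. Snora75 lies above the line in both panels, while Snord57 and Snord47 lie below it.

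The genes that make snoRNA particles were mostly higher in LT-HSC-derived cells. All 20 measured members of the list passed the floor. In the limma fit 4 rose, beside 3.55% of all probe sets: the C/D core genes Nop58 (0.72 ± 0.09 (SE, n = 4 arrays), adjusted p = 0.021) and Nop56, and the H/ACA genes Dkc1, which encodes dyskerin (0.73 ± 0.10, adjusted p = 0.026), and Gar1 (0.55 ± 0.09, adjusted p = 0.037). None fell. Fbl, the fibrillarin gene, read 10.04, 10.38, 9.83 and 10.45, with an adjusted p of 0.071. The list's median was 0.21 with mock and 0.36 with CreER, beside -0.02 over all probe sets in each. For CreER in ST-HSC-derived cells the list's median was -0.13, with 2 of 20 above 0, beside 4700 of 11079 over all probe sets past the floor.

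Of the genes that process microRNAs or act with them, 22 of 23 measured passed the floor. Only 1 was called, Ago4, an Argonaute gene, which fell in LT-HSC-derived cells, beside 2.47% of all probe sets that fell and 3.55% that rose. It read 9.13, 8.51, 9.10 and 8.35, with a fitted difference of -0.69 ± 0.10 (SE, n = 4 arrays) and a limma adjusted p of 0.024. Drosha, Dicer1 and Ago2 differed by 0.06, 0.13 and 0.05 in the fit. Lin28a, whose protein blocks let-7 maturation, read 8.90, 8.83, 9.34 and 9.27, which is higher by 0.44 and 0.45 with CreER, and did not pass (limma adjusted p = 0.319). Of the noncoding snoRNA host genes, 6 of 9 measured passed the floor and 2 rose in LT-HSC-derived cells, beside the same 3.55%, Gas5 and Snhg16 (0.68 ± 0.10 (SE, n = 4 arrays), adjusted p = 0.028). In these 3 lists 0 genes were called for CreER.

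Some lists of cell type markers moved with the population difference. The 12 mast cell and basophil markers had a mean signal of 8.52, 10.62, 8.98 and 10.17, and all 10 past the floor had both LT-HSC arrays above both ST-HSC arrays, beside 25.4% of all probe sets; Mcpt4 and Cma1 stayed under it. The megakaryocyte and platelet markers had a mean of 9.11, 10.71, 9.45 and 10.80, with 4 of 5 higher in this way, and none under the floor. The monocyte and macrophage markers had a mean of 11.44, 11.32, 11.12 and 10.57, and 7 of the 8 past the floor had both CreER arrays below both mock arrays, beside 15.5% of all probe sets. All 11 neutrophil markers were past the floor, with a mean of 12.77, 12.92, 13.43 and 13.03, and they did not go 1 way. For 6 of the 11, both LT-HSC arrays lay below both ST-HSC arrays, beside 29.9%. With mock, 2 others, Retnlg and Cxcr2, were at least 2-fold higher in LT-HSC-derived cells, beside 2.51%, and 0 were lower. With CreER, 0 were at least 2-fold higher and 1 was lower, beside 0.517%. In ST-HSC-derived cells, 3 of the 11 neutrophil markers and 4 of 5 eosinophil markers past the floor were at least 2-fold higher with CreER than with mock, beside 0.415%. With mock, 3 eosinophil markers were at least 2-fold higher in LT-HSC-derived cells, beside 2.51%. Of the T and NK cell markers 0 of 7 passed the floor, and of the B cell markers 1 of 5 did. A changed share of a cell type and a changed amount of RNA per cell cannot be told apart in these arrays, and the part of cell composition in the microRNA and snoRNA differences was not tested.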

How the data were processed

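The table deposited by the authors gives 1 value per probe set and array, taken to be log2 signal from its range, since neither the labels nor the file names the unit. The submitters' processing notes name Affymetrix Expression Console. Its version and settings, and the genome build, were not given in the sources used here. Values were used as deposited. RNA was extracted with Trizol and purified on RNeasy columns before labelling with a whole-transcript kit, per the labels' protocols. Nothing in the labels says whether the arrays came from separate animals. Arrays have no read depth; their number limits the precision.

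Each pairwise comparison is the difference of 2 arrays and has no test. A probe set was counted at an absolute log2 difference of at least 1 with the higher array above its signal floor. The test was limma 3.58.1 under R 4.3.3, with lmFit, eBayes and terms for population and transduction. It ran over the 11466 probe sets that exceeded the floor on some array, and p-values were adjusted over all of them by Benjamini-Hochberg. The code was tested on simulated data. Clusters are hairpins that start within 10000 bases of the next on 1 chromosome, by RefSeq.

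Named members were those at 2-fold in any comparison, the 10 microRNAs and 10 snoRNAs with the highest mean signal, the 5 members furthest to each side in each comparison, and members of the microRNA lists past the floor, with their hosts; only some are given. Others, such as Mir423, Mir330, hairpins under the floor, and Fbl, Drosha, Dicer1, Ago2, Lin28a and other pathway genes, were chosen after their values were seen. The members, lists and alternatives were chosen with earlier results of these data known. Alternatives were quantile and cyclic loess normalization, median centring, no floor and a higher floor, 1.5-fold and 3-fold thresholds, means over probe sets, a trend in the prior and an adjusted p of 0.1.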

Additional observations from a re-analysis of the deposited data

Results flagged for a closer look

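Snord14e differed between CreER and mock by 0.55 on the log2 scale in LT-HSC-derived cells and by -0.55 in ST-HSC-derived cells, opposite directions with 1 array a group, so the difference between the populations was not tested. A pair of probe sets listing Snord14c and Snord14d together with Hspa8 gave 0.41 and -0.47, and 0.40 and -0.46, in the same comparisons.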

How the results depend on the processing

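No paired analysis was possible because each group holds 1 array. Of 118 alternative values of the counts and medians, 105 stayed close to the reported ones. At a 1.5-fold threshold 4 members were higher with CreER among LT-HSC-derived cells, and for LT-HSC against ST-HSC 3 were higher and 5 lower with mock and 9 higher with CreER. At a 3-fold threshold 1 was lower with CreER. With the floor at the 75th percentile, which left 26 members, 1 was lower with mock, and 0 were higher and 1 lower with CreER. Limma then called 1 of the 26, Mir142, beside 211 of 6043 probe sets. With no floor 5 were lower with CreER. Limma then called 15 of 361 members, beside 829 of 21789 probe sets. Cyclic loess normalization gave 1 member at least 2-fold higher with mock. An adjusted p of 0.1 gave 11 limma calls among 96 members, beside 1519 of 11466 probe sets. For the fold counts of these alternatives no share of all probe sets was computed. Snord118 lost its limma call under cyclic loess alone (1.25, adjusted p = 0.0504). Counting identical probe sets once, an alternative chosen after seeing the data, left 6 limma calls. All 312 alternative differences of named members were within 0.143 of the reported ones. A change of side was looked for only where the reported difference was at least 1, and none was found there. Of 116 member minus host differences 3 moved further, those of Snord47 against Gas5 and Snora62 against Rpsa with the mean of all host probe sets. No value changed direction among those called. Over all probe sets limma called 690, and 391 after cyclic loess, 211 with the higher floor and 829 with none. Signal over background limits the 265 members under the floor, and the size of differences that start or end there.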

Other observations

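A further 98 probe sets list a microRNA or snoRNA together with another symbol, and 24 of them passed the floor. The probe set listing Mir22hg and Mir22, a host transcript and its hairpin, read 9.84, 9.23, 9.84 and 8.47 on the mock arrays of ST-HSC and LT-HSC and then their CreER arrays, so that it was lowest on the LT-HSC CreER array, by 0.77 against LT-HSC mock and by 1.37 against ST-HSC CreER. The probe set listing Snora28 and Eif5, a translation initiation factor gene, read 9.70, 10.59, 9.74 and 10.62, higher in LT-HSC-derived cells by 0.89 and 0.87. The probe set listing Mir23b and Aopep read 8.96, 9.11, 8.82 and 8.54. Which of the listed genes these signals come from cannot be told apart, and these probe sets were chosen after their values were seen.

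Some hairpins under the floor on every array had differences as wide as those of called members. Mir340 read 7.35, 6.84, 7.81 and 6.55 and Mir350 6.61, 5.88, 6.80 and 5.94. Both passed an adjusted p of 0.05 for LT-HSC against ST-HSC in limma when probe sets under the floor were tested, as did Mir301 and Mir103-2. Snora70, which lies in the ribosomal protein gene Rpl10, had an unadjusted limma p of 0.0228 for population and an adjusted one of 0.129.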
